A study of Mus musculus with 17 samples.

Results

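Interferon-induced and major histocompatibility complex (MHC) class I genes were followed in ventricular cardiomyocytes from adult mice, as a list of 37 genes out of 55486 in the count table. The list was named gene by gene and matched to the table by Ensembl identifier. Its rule holds no measured value, but it was chosen with earlier results of these data known. It held 7 immunity GTPases, 5 transcription regulators, 2 RNA sensors, 15 antiviral effectors and modifiers, 5 genes of the immunoproteasome and peptide transporter, and 3 MHC class I genes. After the filter on low counts 36 members remained among 13229 tested genes. Oas1a, an oligoadenylate synthetase, did not pass and had at most 0.620 CPM (counts scaled to libraries of equal effective size) in any library.

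Interferons bind receptors that activate Janus kinases, which phosphorylate STAT proteins. A complex that includes IRF9 then binds the interferon-stimulated response element (ISRE) of antiviral genes, whereas the gamma-activated site (GAS) is bound mainly after interferon gamma. Most cell types keep a low level of these transcripts without infection, and cardiomyocytes use them against cardiotropic viruses. MHC class I molecules present peptides that the proteasome makes and the TAP transporter carries into the endoplasmic reticulum.

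The libraries came from mice at postnatal day 60, either with loss of function of the splicing regulator MBNL1 (KO) or wild type (WT). Ventricular myocytes were isolated by enzymatic perfusion, sedimented, plated for 3 h and harvested at 0 h, or after 4 or 8 h with 2 μg/mL actinomycin D, which blocks transcription. There were 3 libraries per genotype and time, except 2 for WT at 4 h, and 17 in all. The labels give neither the allele, the deleted part of Mbnl1, any Cre driver nor the animals behind each replicate, so p-values measure the spread between libraries, which may be technical. No cells were kept for 4 or 8 h without the drug, so time in culture and the transcription block cannot be told apart.

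KO and WT stand below for the libraries so labelled. Whole-gene Mbnl1 counts were 93.9 to 106 CPM in KO and 85.7 to 92.9 CPM in WT libraries. Mbnl1 was called higher in KO at each time, by 0.19, 0.14 and 0.26 on the log2 scale at 0, 4 and 8 h. A count over the whole gene does not check a deletion of unknown extent. Esr1, the oestrogen receptor alpha gene, also separated the groups, with 2253 to 2595 CPM in KO and at most 3.34 CPM in WT libraries. This shows that the groups differ and not which of them lacks MBNL1. The labels do not say where the Esr1 difference comes from. It goes with the genotype label in every library, so it and loss of MBNL1 cannot be told apart in any comparison of KO with WT. Library totals ran between 17058419 and 17968827 counts. Cardiomyocyte markers summed to 57495 to 60781 CPM in KO and 43830.3 to 47915 CPM in WT libraries at 0 h.

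Several marker lists of other heart cells also differed between the groups, and their part in the results below was not tested. Macrophage and monocyte markers (14 of 17 tested) summed to 37.4 to 42.7 CPM in KO against 89.6 to 104 CPM in WT at 0 h. At 8 h they summed to 24.2 to 28.7 CPM in KO against 17.05 to 19.9 CPM in WT. Of these markers 12 were called lower in KO at 0 h, against 17.9% of all tested genes. At 8 h 5 were called higher in KO, against 13.9% of all tested genes. Endothelial markers (16 of 16 tested) summed to 269.6 to 314 CPM in KO against 376 to 394 CPM in WT at 0 h, and to 72.2 to 79.3 CPM in KO against 78.4 to 84.1 CPM in WT at 8 h. All 16 were called lower at 8 h than at 0 h in both genotypes. Of all tested genes 23.2% were called lower in KO and 26.8% in WT. Fibroblast markers summed to 36.95 to 40.3 CPM in KO against 71.4 to 73.4 CPM in WT at 0 h. At 8 h the fibroblast sums were 23.7 to 26.6 CPM in KO and 41.4 to 48.4 CPM in WT. Pericyte and smooth muscle markers summed to 1902 to 2017 CPM in KO against 1813 to 1832 CPM in WT at 0 h. Among the 8 of these that were tested, 1 was called higher and 1 lower in KO, against 18.8% and 17.9% of all tested genes. Lymphocyte and dendritic cell markers summed to at most 1.92 CPM in any library, and Klrb1c had no count. In such bulk libraries, fewer cells of a type and less RNA per cell cannot be told apart.

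**Figure D1:**
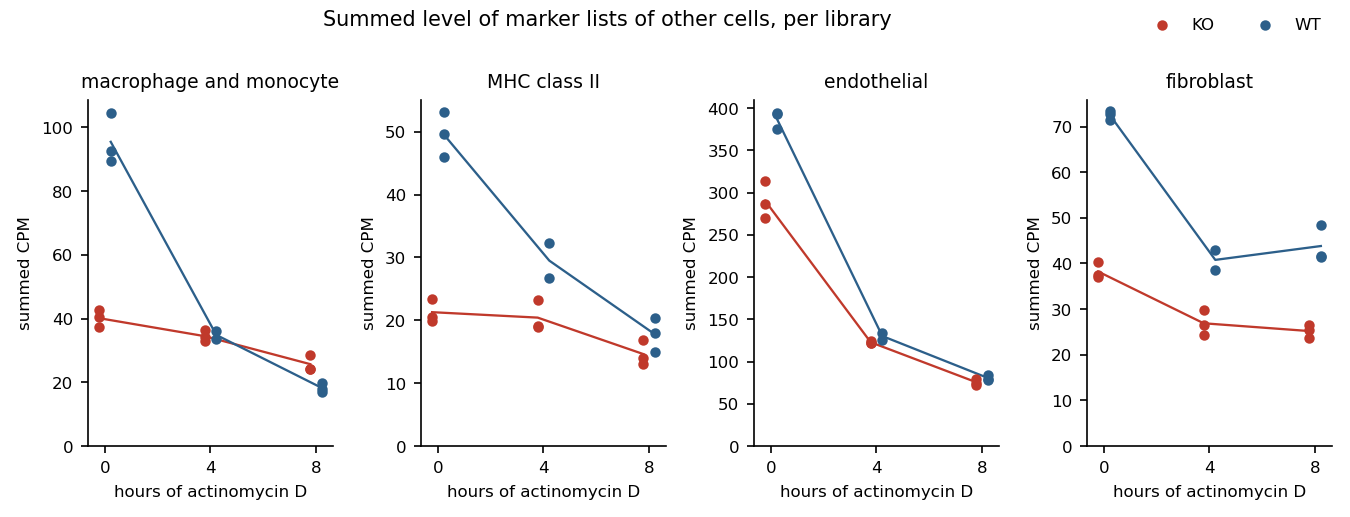
Summed CPM (y axis) of macrophage and monocyte, MHC class II, endothelial and fibroblast gene lists against hours of actinomycin D (x axis), with 1 point per library, KO in red left of WT in blue, and lines through group means. The macrophage sum at 0 h was 37.4 to 42.7 CPM in KO and 89.6 to 104 CPM in WT libraries.

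Promoter windows, from 250 bases before to 50 bases after the annotated start, were read from RefSeq (GRCm38.p6) for the 30 members in that table. The ISRE was searched as GAAA NN GAAA (its complement is TTTC NN TTTC) and the GAS as TTC NNN GAA, which is its own complement, with N for any base. The motifs do not overlap each other in the stretches printed. The ISRE letters were found in 16 of 30 members (53.3%), against 3.99% of all 27025 genes in the table. The GAS letters were found in 9 of 30 members (30.0%), against 9.55% of all genes. All 6 immunity GTPases in the table held the ISRE, as did both RNA sensors and 6 of 11 antiviral effectors. None of the 4 immunoproteasome and transporter windows held it, and of the 3 MHC class I windows that of B2m did. These are letter matches and do not show binding.

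Stretches of 60 bases around the ISRE are shown for 9 members called higher in KO at 1 or more times, to show the layout of the element. The ISRE letters were also found in Gbp2, Gbp3, Bst2, Ddx58 and Stat2, which were not called higher at any time. They were not found in the windows of Irf7, Psmb10, H2-K1, H2-D1 and Cmpk2, which were called higher at 1 or more times. Ifih1 held the letters and was called higher, but is not shown. Capitals mark ISRE matches and, in Igtp, Irgm2 and Gbp7, also a GAS match on its 5′ side. Overlapping ISRE matches run together in Irgm1 and Isg15.
Igtp: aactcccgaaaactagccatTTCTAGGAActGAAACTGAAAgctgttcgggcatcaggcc
Irgm2: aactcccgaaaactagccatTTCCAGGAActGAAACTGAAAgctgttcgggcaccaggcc
Irgm1: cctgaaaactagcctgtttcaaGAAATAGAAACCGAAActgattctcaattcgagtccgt
Gbp7: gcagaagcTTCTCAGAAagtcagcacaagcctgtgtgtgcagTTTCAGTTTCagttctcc
Rsad2: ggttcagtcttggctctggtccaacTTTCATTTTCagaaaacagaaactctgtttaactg
Ifit1: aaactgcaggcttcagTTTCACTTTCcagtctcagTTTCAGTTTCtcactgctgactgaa
Ifit3: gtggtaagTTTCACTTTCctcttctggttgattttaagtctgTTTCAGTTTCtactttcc
Isg15: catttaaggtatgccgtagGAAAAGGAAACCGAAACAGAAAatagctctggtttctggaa
B2m: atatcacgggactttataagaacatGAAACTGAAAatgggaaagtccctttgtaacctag
The stretches lie at chr11:58199491-58199550 on the forward strand for Igtp, chr11:58214882-58214941 on the forward strand for Irgm2, chr11:48871413-48871472 on the reverse strand for Irgm1, chr3:142530241-142530300 on the forward strand for Gbp7, chr12:26456538-26456597 on the reverse strand for Rsad2, chr19:34640769-34640828 on the forward strand for Ifit1, chr19:34583365-34583424 on the forward strand for Ifit3, chr4:156200856-156200915 on the reverse strand for Isg15 and chr2:122147523-122147582 on the forward strand for B2m. The Igtp and Irgm2 stretches were identical at 58 of 60 bases, and their GAS and ISRE are spaced alike.

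Levels were compared between genes as CPM per kb of exon at 0 h, averaged over genotypes. B2m, the invariant class I light chain, stood first, with 69.5 CPM per kb in KO and 54.2 CPM per kb in WT. Psmb10, an immunoproteasome subunit, followed with 18.02 CPM per kb in KO and 14.3 CPM per kb in WT. Igtp had 22.97 CPM per kb in KO and 9.21 CPM per kb in WT, and so ranked above Psmb10 in KO and below it in WT. H2-K1 (14.6 in KO and 11.9 in WT) and H2-D1 (11.5 in KO and 12.6 in WT) came next, and in WT their libraries overlapped. The lowest were Nlrc5 (0.227 in KO and 0.183 in WT) and Oas1a (0.224 in KO and 0.177 in WT), on the same scale.

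**Figure D2:**
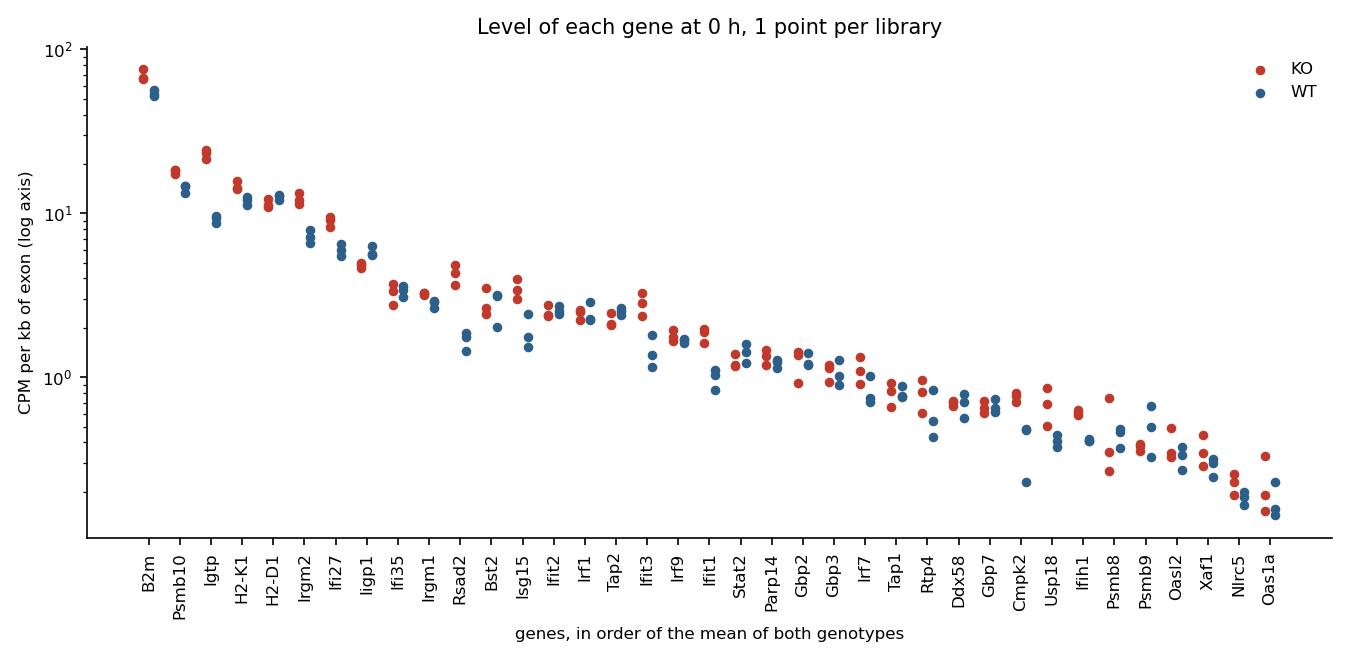
CPM per kb of exon at 0 h (y axis, log scale) for the 37 genes, ordered by the mean of both genotypes (x axis), with 1 point per library, KO in red left of WT in blue. B2m stands first in both genotypes, and Igtp has the largest KO to WT ratio among the 5 highest genes.

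At 0 h the genotypes were compared to ask which of these transcripts differed before transcription was blocked. In KO cells 15 of 36 members were called higher (edgeR's quasi-likelihood test, adjusted p below 0.05), against 18.8% of all tested genes, and 1 was called lower, against 17.9% of all tested genes. The median log2 fold change of the members was 0.22, beside -0.02 over all genes. This split depends on the scaling. Scaling by library size alone gave 10 higher and 4 lower, against 6.85% and 42.1% of all genes. Scaling by ribosomal protein genes gave 8 higher and 9 lower, against 3.62% and 57.5% of all genes. These scalings moved the median of all genes to -0.22 and -0.35 on the log2 scale. Antiviral effectors gave 7 of the 15, immunity GTPases 3 and MHC class I genes 2. The members were chosen with earlier results of these data known, so these counts are not an independent test.

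At 4 h 16 members were called higher in KO, against 14.6% of all tested genes, and 2 lower, against 17.4%. At 8 h 13 members were higher, against 13.9% of all genes, and 2 lower, against 13.7%. The members' medians were 0.43 at 4 h and 0.33 at 8 h, beside -0.04 and -0.02 over all genes. Ribosomal protein scaling gave 11 higher and 7 lower at 4 h, against 2.51% and 56.2% of all genes. Library size alone gave 12 higher and 4 lower at 8 h, against 7.17% and 22.99% of all genes. Of the 36 members, 10 were called higher in KO at all 3 times. They were Igtp, Irgm2, Irf7, Ifih1, Rsad2, Usp18, Ifi27, Psmb10, H2-K1 and B2m. A further 18 members were not called higher at any time. The shares of all tested genes called higher at all 3 times, or at none, were not computed, so these counts have no background beside them.

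**Figure D3:**
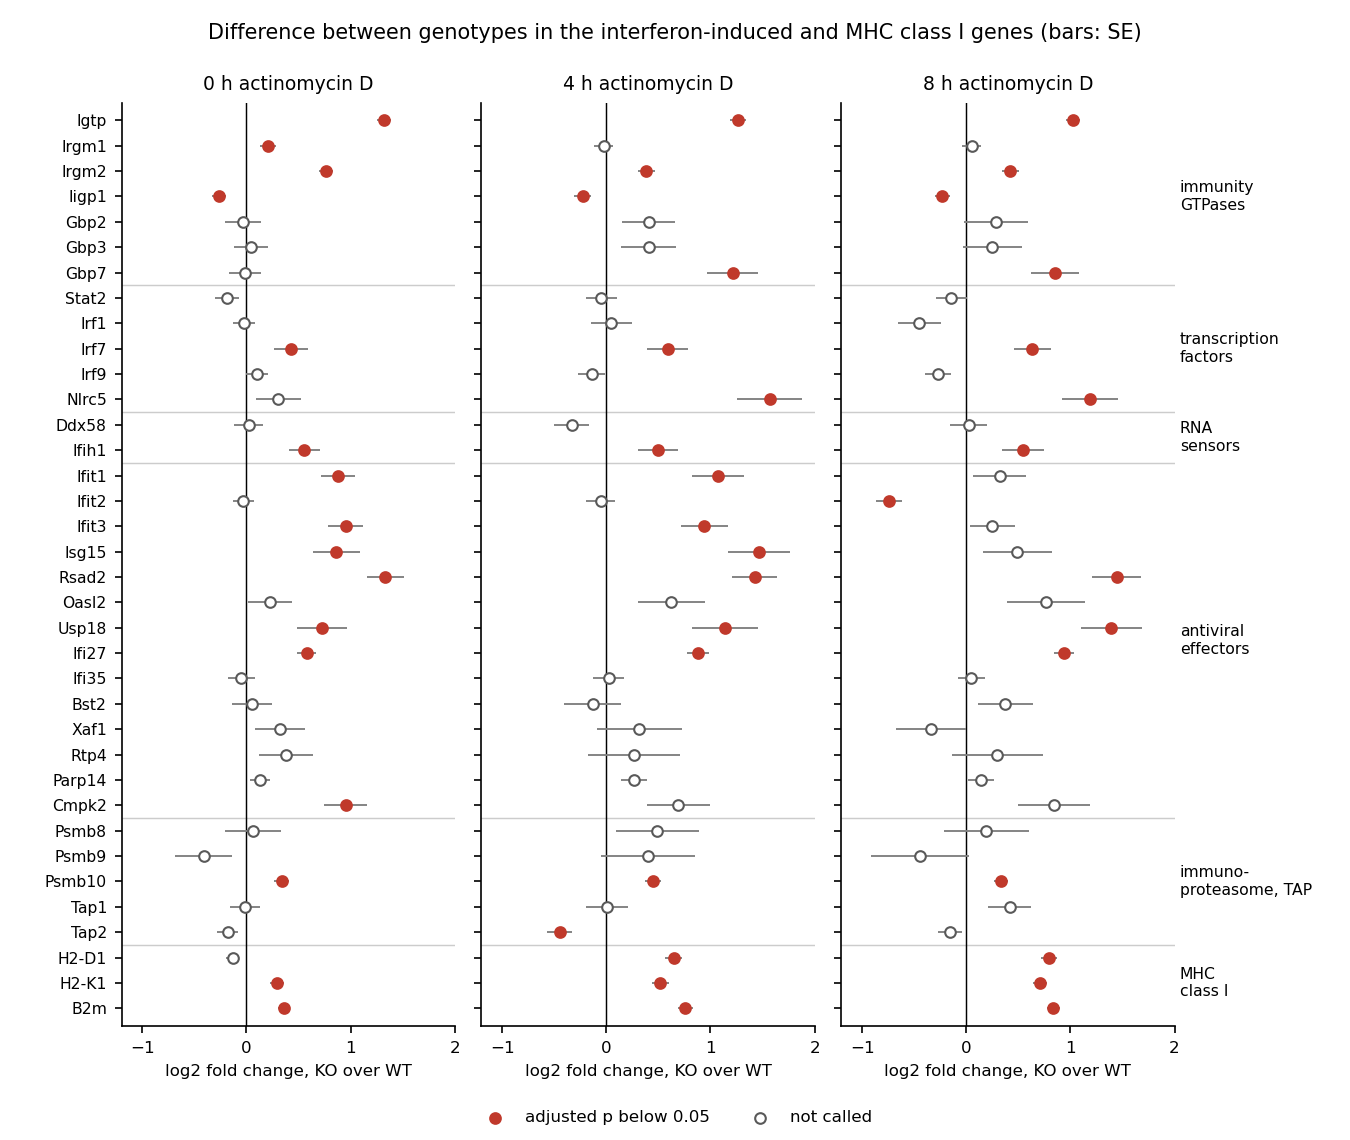
Log2 fold change of KO over WT (x axis) for the 36 tested genes, grouped by role (y axis), at 0, 4 and 8 h, with bars of 1 SE and red points where the adjusted p was below 0.05. Igtp and Rsad2 lie above 1 at each time, whereas Gbp7, Nlrc5 and H2-D1 are called at 4 and 8 h and not at 0 h. The change since 0 h was not called different between the genotypes for Nlrc5 at either time, or for Gbp7 at 8 h.

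Immunity GTPases act against intracellular pathogens, and some of them attack the vacuoles that hold these. Igtp (chr11:58199556-58207591, forward strand), an immunity-related GTPase also called Irgm3, had 49.0, 46.9 and 43.5 CPM at 0 h, 52.9, 52.3 and 54.2 CPM at 4 h and 42.7, 43.3 and 42.3 CPM at 8 h in KO. It had 18.8, 17.6 and 19.4 CPM at 0 h, 21.8 and 22.4 CPM at 4 h and 18.4, 20.9 and 23.6 CPM at 8 h in WT. Every KO library was above every WT library at each time. The log2 fold change was 1.32 ± 0.07 (SE) at 0 h, 1.27 ± 0.08 at 4 h and 1.03 ± 0.07 at 8 h, with edgeR adjusted p of 2.15e-25, 1.00e-21 and 7.21e-20. At 0 h this is a 2.49-fold difference, and it was called under each alternative tried.

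Irgm2, the neighbouring GTPase gene whose printed promoter stretch is nearly that of Igtp, had 49.1, 44.8 and 41.8 CPM at 0 h, 31.0, 29.7 and 30.3 CPM at 4 h and 19.5, 22.3 and 18.8 CPM at 8 h in KO. It had 24.3, 29.1 and 26.6 CPM at 0 h, 23.2 and 23.3 CPM at 4 h and 14.2, 15.0 and 15.9 CPM at 8 h in WT. The genotypes did not overlap at any time, and the difference was 0.76 ± 0.07 (SE) at 0 h and 0.42 ± 0.08 at 8 h (edgeR adjusted p = 9.86e-15 and 2.44e-05). Annotated exons of Irgm2 overlap those of Igtp on the same strand, so reads shared between them make both values uncertain. Irgm1, a regulator of the other GTPases, had 19.0, 18.5 and 19.0 CPM in KO against 16.7, 16.8 and 15.3 CPM in WT at 0 h. Its difference was 0.21 ± 0.08 (SE; edgeR adjusted p = 0.0242), and it turned to -0.12 with ribosomal protein scaling. The call was also lost with library size alone, without a filter on low counts, and without KO replicate 1 or 3 or WT replicate 3 at 0 h. Irgm1 had 14.0, 14.1 and 14.4 CPM in KO and 13.8 and 15.0 CPM in WT at 4 h, and 10.5, 11.8 and 11.6 CPM in KO and 10.5, 11.8 and 10.4 CPM in WT at 8 h. The groups overlapped at both times.

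Iigp1, an immunity-related GTPase, was the exception in direction. It had 27.0, 28.3 and 29.0 CPM at 0 h, 23.9, 23.6 and 27.6 CPM at 4 h and 23.3, 23.9 and 27.0 CPM at 8 h in KO. It had 36.7, 32.2 and 32.7 CPM at 0 h, 29.1 and 29.4 CPM at 4 h and 30.2, 28.8 and 28.0 CPM at 8 h in WT. Each KO library was below each WT library of the same time, and the log2 fold change was -0.27 ± 0.07 at 0 h (SE; edgeR adjusted p = 0.00110), -0.23 ± 0.08 at 4 h (adjusted p = 0.0190) and -0.23 ± 0.07 at 8 h (adjusted p = 0.0108). DESeq2 did not call it at 4 or 8 h. The call at 4 h was also lost without a filter on low counts and without KO replicate 1 or 2 or either WT replicate, and that at 8 h without KO replicate 1 or 2 or WT replicate 1.

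The guanylate-binding proteins, larger GTPases that coat pathogen vacuoles, were not called at 0 h. Gbp2 had 2.31, 3.42 and 3.58 CPM at 0 h, 2.22, 1.87 and 1.73 CPM at 4 h and 1.09, 0.871 and 0.962 CPM at 8 h in KO. It had 3.52, 2.97 and 3.02 CPM at 0 h, 1.72 and 1.20 CPM at 4 h and 0.947, 0.744 and 0.703 CPM at 8 h in WT. Gbp7, taken up here after its values were seen, had 3.38, 3.66 and 4.04 CPM at 0 h, 2.73, 2.51 and 2.14 CPM at 4 h and 1.87, 2.052 and 1.98 CPM at 8 h in KO. It had 4.12, 3.67 and 3.45 CPM at 0 h, 1.09 and 1.03 CPM at 4 h and 1.07, 1.14 and 1.05 CPM at 8 h in WT. The Gbp7 groups overlapped at 0 h and separated at 4 and 8 h, where KO was 2.32-fold and 1.80-fold of WT (edgeR adjusted p = 7.56e-05 and 0.00333). Gbp3, a paralogue, had log2 fold changes of 0.04, 0.41 and 0.25 at the 3 times, none of them called. Gbp2, Gbp3 and Gbp7 lie in 1 cluster on chromosome 3 and resemble each other, so reads that map to several of them are uncertain.

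Among the transcription regulators, Irf7, which amplifies type I interferon, had 3.44, 5.04 and 4.096 CPM at 0 h, 4.32, 3.86 and 3.87 CPM at 4 h and 4.47, 3.30 and 4.45 CPM at 8 h in KO. It had 3.85, 2.82 and 2.68 CPM at 0 h, 2.93 and 2.40 CPM at 4 h and 2.61, 2.92 and 2.34 CPM at 8 h in WT. The groups overlapped at 0 h and not at 4 or 8 h. The difference was 0.43 ± 0.16 (SE) at 0 h, 0.59 ± 0.20 at 4 h and 0.63 ± 0.18 at 8 h (edgeR adjusted p = 0.0312, 0.0153 and 0.00411). The call at 0 h was lost with DESeq2, library size alone, ribosomal protein scaling or no filter, and when KO replicate 2 or 3 or WT replicate 2 or 3 was left out. That at 4 h was lost with ribosomal protein scaling and without KO replicate 1 or WT replicate 2. Irf7 exons overlap Phrf1 on the opposite strand, and the strand setting of the counting is not given.

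Nlrc5, the coactivator of MHC class I promoters, was chosen after its values were seen. It had 2.20, 1.62 and 1.96 CPM at 0 h, 2.16, 1.87 and 1.61 CPM at 4 h and 1.99, 1.93 and 1.44 CPM at 8 h in KO. It had 1.41, 1.68 and 1.58 CPM at 0 h, 0.632 and 0.629 CPM at 4 h and 0.711, 0.629 and 0.996 CPM at 8 h in WT. All KO libraries at 4 and 8 h lay above all WT libraries, and KO was 2.96-fold and 2.29-fold of WT (edgeR adjusted p = 4.93e-05 and 3.62e-04). At 0 h the groups overlapped and the difference of 0.31 ± 0.22 was not called. The change of Nlrc5 since 0 h was not called different between the genotypes at 4 or 8 h. Its counts were low, with 22 in sum over the WT libraries at 4 h. Irf1, an early activator of class I and GTPase genes, had 8.85, 10.2 and 9.92 CPM in KO against 9.05, 11.4 and 8.91 CPM in WT at 0 h, and the groups overlapped. Stat2 and Irf9, whose products act at the ISRE, had log2 fold changes of -0.19 and 0.10 at 0 h and were not called at any time. Irf9 exons overlap those of Rnf31 on the same strand, so the Irf9 values are uncertain.

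Of the 2 cytosolic RNA sensors 1 was called between the genotypes. Ifih1, which encodes MDA5, had 4.79, 4.92 and 5.13 CPM at 0 h, 3.64, 3.62 and 2.92 CPM at 4 h and 1.99, 2.67 and 2.59 CPM at 8 h in KO. It had 3.41, 3.32 and 3.35 CPM at 0 h, 2.70 and 2.12 CPM at 4 h and 1.66, 1.54 and 1.76 CPM at 8 h in WT. No KO library overlapped WT at any time, and the differences were 0.56 ± 0.15, 0.50 ± 0.19 and 0.55 ± 0.20 (SE; edgeR adjusted p = 0.00166, 0.0426 and 0.0364). Ribosomal protein scaling did not call it at any time, and DESeq2, library size alone and the fit with no filter did not call it at 4 or 8 h. The call at 4 h was also lost without KO replicate 1 or 2 or WT replicate 2, and that at 8 h without KO replicate 2 or 3 or any WT replicate. Ddx58, which encodes RIG-I, had log2 fold changes of 0.02, -0.33 and 0.02, not called at any time.

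Rsad2 (chr12:26442746-26456452, reverse strand) encodes viperin, an enzyme that makes a chain-terminating nucleotide. It had 15.7, 20.997 and 18.6 CPM at 0 h, 16.8, 19.6 and 13.4 CPM at 4 h and 12.3, 7.96 and 9.14 CPM at 8 h in KO. It had 7.64, 8.08 and 6.27 CPM at 0 h, 6.15 and 6.23 CPM at 4 h and 3.73, 4.23 and 2.81 CPM at 8 h in WT. KO libraries lay above WT libraries at each time, by 1.33 ± 0.18, 1.42 ± 0.22 and 1.45 ± 0.24 on the log2 scale (SE; edgeR adjusted p = 3.80e-05, 1.70e-04 and 3.44e-04). Cmpk2, a nucleotide kinase encoded beside Rsad2 on chromosome 12, had 3.21, 2.94 and 3.35 CPM in KO against 2.00, 1.98 and 0.958 CPM in WT at 0 h. Those groups did not overlap, and the difference was 0.95 ± 0.21 (SE; edgeR adjusted p = 1.44e-04). At 4 h Cmpk2 had 1.82, 1.40 and 1.79 CPM in KO and 1.21 and 0.858 CPM in WT, a difference of 0.69 ± 0.30 that was not called. At 8 h it had 0.907, 0.933 and 1.20 CPM in KO and 0.770, 0.458 and 0.469 CPM in WT, a difference of 0.84 ± 0.34 that was not called.

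The Ifit genes encode proteins that bind foreign RNA ends, and lie together on chromosome 19. Ifit1 had 4.28, 5.04 and 5.25 CPM at 0 h, 3.18, 2.105 and 3.21 CPM at 4 h and 1.75, 1.80 and 1.26 CPM at 8 h in KO. It had 2.22, 2.92 and 2.73 CPM at 0 h, 0.977 and 1.72 CPM at 4 h and 1.48, 1.26 and 1.11 CPM at 8 h in WT. Ifit3 had 4.11, 5.70 and 4.96 CPM at 0 h, 3.07, 3.33 and 3.69 CPM at 4 h and 2.055, 2.36 and 2.46 CPM at 8 h in KO. It had 2.00, 2.38 and 3.16 CPM at 0 h, 1.90 and 1.60 CPM at 4 h and 2.31, 1.43 and 2.050 CPM at 8 h in WT. For both genes the genotypes separated at 0 and 4 h and overlapped at 8 h. At 0 h the difference was 0.88 ± 0.17 for Ifit1 and 0.95 ± 0.17 for Ifit3 (SE; edgeR adjusted p = 1.73e-05 and 3.54e-06). At 8 h it was 0.32 ± 0.25 for Ifit1 and 0.25 ± 0.21 for Ifit3, neither called. Ifit3 has a near copy, Ifit3b, so its counts are uncertain. Without WT replicate 1 at 4 h the call of Ifit1 at 4 h was lost.

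Ifit2, of the same cluster, had 9.41, 10.8 and 9.29 CPM at 0 h, 5.51, 7.42 and 5.77 CPM at 4 h and 5.38, 4.35 and 4.63 CPM at 8 h in KO. It had 9.53, 10.6 and 9.96 CPM at 0 h, 7.07 and 5.89 CPM at 4 h and 8.23, 7.72 and 8.14 CPM at 8 h in WT. The groups overlapped at 0 and 4 h, and at 8 h each KO library was below each WT library. The log2 fold change of KO over WT at 8 h was -0.74 ± 0.12 (SE; edgeR adjusted p = 2.43e-06).

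Isg15, a ubiquitin-like modifier, had 2.25, 2.58 and 3.00 CPM at 0 h, 2.61, 1.99 and 2.32 CPM at 4 h and 1.33, 0.497 and 1.20 CPM at 8 h in KO. It had 1.84, 1.34 and 1.15 CPM at 0 h, 0.747 and 0.915 CPM at 4 h and 0.651, 0.629 and 0.879 CPM at 8 h in WT. KO lay above WT at 0 and 4 h, by 0.86 ± 0.22 and 1.47 ± 0.30 (SE; edgeR adjusted p = 0.00125 and 6.86e-05), and the groups overlapped at 8 h. Usp18, the protease that removes ISG15 and restrains receptor signalling, had 1.41, 2.40 and 1.90 CPM at 0 h, 1.82, 1.58 and 1.55 CPM at 4 h and 1.99, 1.37 and 1.56 CPM at 8 h in KO. It had 1.14, 1.24 and 1.05 CPM at 0 h, 0.747 and 0.743 CPM at 4 h and 0.770, 0.572 and 0.527 CPM at 8 h in WT. KO was 1.66-fold, 2.20-fold and 2.62-fold of WT at the 3 times (edgeR adjusted p = 0.0123, 0.00322 and 1.41e-04) with no overlap, and the call at 0 h was lost without KO replicate 2, and neither scaling by ribosomal protein genes nor scaling by library size called it.

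Ifi27, which encodes a small interferon-induced membrane protein, had 13.4, 12.1 and 13.8 CPM at 0 h, 15.7, 14.0 and 15.2 CPM at 4 h and 16.7, 17.2 and 15.9 CPM at 8 h in KO. It had 9.48, 8.08 and 8.81 CPM at 0 h, 8.27 and 7.95 CPM at 4 h and 9.18, 9.10 and 7.67 CPM at 8 h in WT. KO lay above WT at each time, by 0.58 ± 0.09, 0.88 ± 0.11 and 0.94 ± 0.09 (SE; edgeR adjusted p = 5.82e-07, 5.07e-10 and 6.12e-13). Oasl2, an oligoadenylate synthetase-like protein, had 2.08, 3.12 and 2.19 CPM at 0 h, 1.65, 1.70 and 0.893 CPM at 4 h and 0.846, 0.746 and 0.902 CPM at 8 h in KO. It had 1.73, 2.13 and 2.39 CPM at 0 h, 1.15 and 0.686 CPM at 4 h and 0.355, 0.629 and 0.469 CPM at 8 h in WT, and was not called between the genotypes. Bst2 (tetherin, which holds virions at the membrane), Ifi35, Xaf1, Rtp4 and Parp14 had log2 fold changes between -0.05 and 0.38 at 0 h and were not called at any time. Rtp4 exons overlap those of Gm45338 on the same strand, so the Rtp4 values are uncertain.

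Of the immunoproteasome and transporter genes, Psmb10 was the one called at each time. It had 29.4, 31.3 and 31.5 CPM at 0 h, 35.1, 36.0 and 31.2 CPM at 4 h and 34.9, 37.2 and 36.6 CPM at 8 h in KO. It had 25.02, 25.2 and 22.8 CPM at 0 h, 25.4 and 24.6 CPM at 4 h and 31.7, 27.2 and 27.1 CPM at 8 h in WT. The groups did not overlap, and KO was higher by 0.34 ± 0.07, 0.45 ± 0.08 and 0.34 ± 0.07 (SE; edgeR adjusted p = 5.33e-05, 4.00e-06 and 6.53e-05), although with ribosomal protein scaling the difference at 0 h was 0.0063. Psmb9, another catalytic subunit, had 1.30, 1.44 and 1.38 CPM at 0 h, 0.739, 0.643 and 1.01 CPM at 4 h and 0.604, 0.497 and 0.180 CPM at 8 h in KO. It had 1.19, 2.43 and 1.82 CPM at 0 h, 1.03 and 0.172 CPM at 4 h and 0.592, 0.744 and 0.410 CPM at 8 h in WT, and the genotypes overlapped at each time. Psmb9 and Tap1 are transcribed in opposite directions, and their promoter windows share 275 bases (chr17:34187306-34187580). Their exons also overlap, so reads at that end are uncertain. Tap1 and Tap2 form the peptide transporter. Psmb8, the remaining inducible subunit, had log2 fold changes of 0.06, 0.49 and 0.19 at the 3 times, none called. Tap1 was not called, with -0.01 at 0 h and 0.42 at 8 h, and Tap2 was called lower in KO at 4 h, with a log2 fold change of -0.45 ± 0.12 (SE; edgeR adjusted p = 0.00215), a call lost without WT replicate 2 at 4 h.

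Of the 3 class I genes, 2 were called higher in KO at 0 h and all 3 at 4 and 8 h. H2-D1 (chr17:35262730-35267499, forward strand), a heavy chain that binds peptide, had 28.3, 29.0 and 31.4 CPM at 0 h, 22.8, 24.1 and 22.6 CPM at 4 h and 20.4, 20.4 and 20.9 CPM at 8 h in KO. It had 33.4, 32.9 and 31.1 CPM at 0 h, 16.1 and 13.6 CPM at 4 h and 12.4, 12.1 and 11.1 CPM at 8 h in WT. The groups overlapped at 0 h, where the difference of -0.13 ± 0.07 (SE) was not called, and separated at 4 and 8 h, where KO was 1.56-fold and 1.74-fold of WT (edgeR adjusted p = 6.28e-09 and 1.00e-12).

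H2-K1 (chr17:33996017-34000347, reverse strand), the other classical heavy chain, had 41.1, 41.9 and 46.0 CPM at 0 h, 40.1, 34.6 and 38.1 CPM at 4 h and 40.3, 37.7 and 41.3 CPM at 8 h in KO. It had 36.9, 32.9 and 35.2 CPM at 0 h, 25.7 and 26.8 CPM at 4 h and 26.4, 21.3 and 25.2 CPM at 8 h in WT. KO lay above WT at each time, by 0.30 ± 0.07, 0.52 ± 0.08 and 0.71 ± 0.07 (SE; edgeR adjusted p = 2.25e-04, 2.25e-07 and 7.30e-13), but at 0 h the value was -0.034 with ribosomal protein scaling. B2m (chr2:122147686-122153083, forward strand) had 57.5, 56.9 and 64.9 CPM at 0 h, 53.7, 56.9 and 57.5 CPM at 4 h and 62.9, 58.0 and 65.4 CPM at 8 h in KO. It had 48.9, 46.1 and 44.8 CPM at 0 h, 34.4 and 31.9 CPM at 4 h and 36.5, 35.8 and 32.2 CPM at 8 h in WT. KO was 1.28-fold, 1.69-fold and 1.78-fold of WT (edgeR adjusted p = 1.30e-06, 9.77e-14 and 8.35e-18), without overlap, and at 0 h the log2 difference was 0.028 with ribosomal protein scaling. Reads of H2-D1, H2-K1 and the H2-Q genes can be shared, so the heavy chain values are uncertain.

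Within each genotype the later times were set against 0 h to ask which transcripts lost share during the block. A fall here is relative to the bulk of transcripts, since the total was scaled in each library. In KO at 4 h 21 members were called lower, against 13.5% of all tested genes, and 1 higher, against 11.4%. In WT at 4 h 20 were lower, against 12.6%, and 1 higher, against 15.9%. In KO at 8 h 27 were lower, against 23.2%, and 2 higher, against 21.4%. In WT at 8 h 29 were lower, against 26.8%, and 2 higher, against 25.0%. The members' medians at 8 h were -0.88 in KO and -0.93 in WT on the log2 scale, beside -0.02 and -0.03 over all genes. Of the 36 members 25 were called lower at 8 h in both genotypes. The share of all tested genes called lower in both was not computed, so this count has no background beside it. By role at 8 h, 6 of 7 GTPases were lower in each genotype, as were 4 of 5 immunoproteasome and transporter genes and both RNA sensors. Of 14 antiviral effectors 11 were lower in KO and 10 in WT, and of 5 transcription regulators 3 in KO and 4 in WT. Of the 3 class I genes 1 was lower in KO and 3 in WT. Irf7 and Ifi35 were called in neither genotype.

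Endothelial markers fell in the same comparisons, with medians of -1.90 in KO and -2.28 in WT at 8 h, and macrophage markers had medians of -0.78 in KO and -2.41 in WT. Their part in the members' falls was not tested. Irf1 fell to 18.8% of its 0 h level in KO and to 25.2% in WT. Its values at 4 h were 2.90, 2.57 and 3.15 CPM in KO and 2.93 and 2.63 CPM in WT, and at 8 h they were 1.69, 2.30 and 1.44 CPM in KO and 2.55, 2.35 and 2.52 CPM in WT. The log2 change at 8 h was -2.41 ± 0.15 in KO and -1.99 ± 0.14 in WT (SE; edgeR adjusted p = 8.60e-21 and 3.59e-19), and the libraries at 8 h did not overlap those at 0 h in either genotype. The Irf1 3′ UTR holds 3 ATTTA pentamers, a letter pattern of AU-rich elements that can shorten mRNA life. Their part in the fall was not tested.

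Gbp2 fell by 1.66 ± 0.23 in KO and by 1.98 ± 0.23 in WT on the log2 scale, and Oasl2 by 1.55 ± 0.26 in KO and by 2.09 ± 0.30 in WT (SE; edgeR adjusted p between 6.36e-11 and 1.54e-06 for these 4 changes). Psmb9 fell by 1.67 ± 0.39 in KO (adjusted p = 3.63e-04) and by 1.64 ± 0.33 in WT (adjusted p = 3.76e-05). Of the other falling members, Rtp4, a chaperone of membrane receptors, changed by -1.66 in KO and -1.58 in WT, Gbp3 by -1.61 in KO and -1.82 in WT, and Tap2 by -0.31 in KO and -0.34 in WT. At the other end, Psmb10 rose by 0.24 ± 0.07 in KO and by 0.24 ± 0.07 in WT (edgeR adjusted p = 0.00268 and 0.00294). Ifi27 rose by 0.34 ± 0.09 in KO (adjusted p = 8.13e-04) and changed by -0.02 ± 0.10 in WT, which was not called. Igtp rose by 0.17 ± 0.07 in WT (adjusted p = 0.0435), with libraries that overlapped those at 0 h and its change of -0.12 ± 0.06 in KO was not called. The Igtp call was lost without WT replicate 2 at 0 h or WT replicate 2 or 3 at 8 h, with no filter and in the compared groups alone, and its value was -0.042 with library size alone. The Psmb10 call in WT was lost without WT replicate 1 at 8 h. With library size alone Psmb10 changed by 0.13 in KO and by 0.025 in WT (edgeR adjusted p = 0.144 and 0.804), and neither was called. With ribosomal protein scaling each of these rises was below 0. Ifi35, an interferon-induced leucine zipper protein, had 6.37, 4.74 and 5.77 CPM at 0 h, 4.43, 5.20 and 6.55 CPM at 4 h and 6.35, 6.34 and 6.07 CPM at 8 h in KO. It had 5.90, 6.24 and 5.36 CPM at 0 h, 5.23 and 5.38 CPM at 4 h and 6.93, 5.72 and 5.51 CPM at 8 h in WT, and was not called at any time.

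Among members, ATTTA was present in the 3′ UTR of 20 of 36 (55.6%), with a median UTR of 592.5 bases, against 66.8% of the tested genes that have an annotated 3′ UTR, with a median of 1012 bases. The median number of pentamers was 1 in both sets. Gbp7 and Cmpk2 held 7 each and Iigp1 held 5, and Gbp2, Psmb9, H2-D1 and H2-K1 were among those that held none. A relation between the pentamers and the changes over time was not tested.

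Whether the course over time differed between KO and WT was asked by the difference between the genotypes in the change since 0 h. At 4 h 3 members were called with a smaller fall or larger rise in KO, against 0.242% of all tested genes. None was called in the other direction, against 0.106% (edgeR; 1 member at unadjusted p below 0.05, and 0 called by DESeq2). At 8 h 3 were called in the first direction, against 1.87%, and 2 in the other, against 3.33%. The medians were 0.10 at 4 h and 0.03 at 8 h, beside -0.03 and -0.02 over all genes. Library size alone gave 5 and 1 at 8 h, against 4.26% and 0.998% of all genes. Ribosomal protein scaling gave 8 and 0, against 21.8% and 0.333%, so that its 8 members are near the share over all genes. The changes of the other 31 members at 8 h were not called different between KO and WT, which does not show that they were equal.

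All 3 class I genes were called at 8 h. H2-D1 kept 69.4% of its 0 h level in KO and 36.5% in WT, a difference of 0.93 ± 0.10 on the log2 scale (SE; edgeR adjusted p = 1.64e-09). At 4 h it was 0.78 ± 0.11 (adjusted p = 2.71e-06). H2-K1 kept 92.4% in KO and 69.5% in WT (0.41 ± 0.10, adjusted p = 0.00432). B2m kept 104% in KO and 74.7% in WT (0.47 ± 0.09, adjusted p = 1.97e-04). These 8 h calls, and that of H2-D1 at 4 h, were held under each alternative tried, leaving out any 1 library included. Under ribosomal protein scaling 21.8% of all genes were called in this direction at 8 h, so that setting adds little to the 8 h calls. Some other lists had calls in the same direction at 8 h, against 1.87% of all tested genes. They were 9 of 14 macrophage markers (list median 1.77), 4 of 7 MHC class II genes (0.92) and 3 of 16 endothelial markers (0.24). Lists with few such calls were further class I and peptide loading genes, with 1 of 20 (median 0.06), and further interferon-induced genes, with 2 of 56 (0.02). Fibroblast markers had 0 of 11 (median -0.06). Class II genes summed to 19.9 to 23.5 CPM in KO and 46.0 to 53.1 CPM in WT at 0 h, and to 13.1 to 16.8 CPM in KO and 14.9 to 20.4 CPM in WT at 8 h. Their part in the class I result was not tested.

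Ifit2 went the other way, keeping 48.7% in KO and 80.1% in WT at 8 h (-0.71 ± 0.16 on the log2 scale, SE; edgeR adjusted p = 0.00305). In WT Ifit2 was higher at 8 h than at 4 h in each library, whereas in KO each library at 8 h was below each at 4 h. Ifit2 was called under each alternative except ribosomal protein scaling (-0.44, adjusted p = 0.0622). Irgm2 kept 44.6% in KO and 56.4% in WT (-0.34 ± 0.11, adjusted p = 0.0436), and at 8 h its KO libraries still lay above WT. That call was lost with DESeq2 (adjusted p = 0.0797), with library size alone (-0.23), with ribosomal protein scaling (-0.064), with no filter and in the compared groups alone. It was also lost without KO replicate 1 or 2 or WT replicate 1 at 0 h, and without KO replicate 1 or 3 or WT replicate 2 or 3 at 8 h. Gbp7 at 4 h (1.23 ± 0.29, adjusted p = 0.0313) and B2m at 4 h (0.40 ± 0.09, adjusted p = 0.0273) were lost with DESeq2, with adjusted p of 0.223 for Gbp7 and 0.0639 for B2m. Both were lost with ribosomal protein scaling too, with adjusted p of 0.0685 for Gbp7 and 0.323 for B2m. The Gbp7 call was also lost without KO replicate 1 or 2 or WT replicate 1 at 0 h, or without KO replicate 1 or 2 or either WT replicate at 4 h. The B2m call was also lost without KO replicate 2 or WT replicate 1 at 0 h, or without KO replicate 2 or 3 or WT replicate 2 at 4 h.

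**Figure D4:**
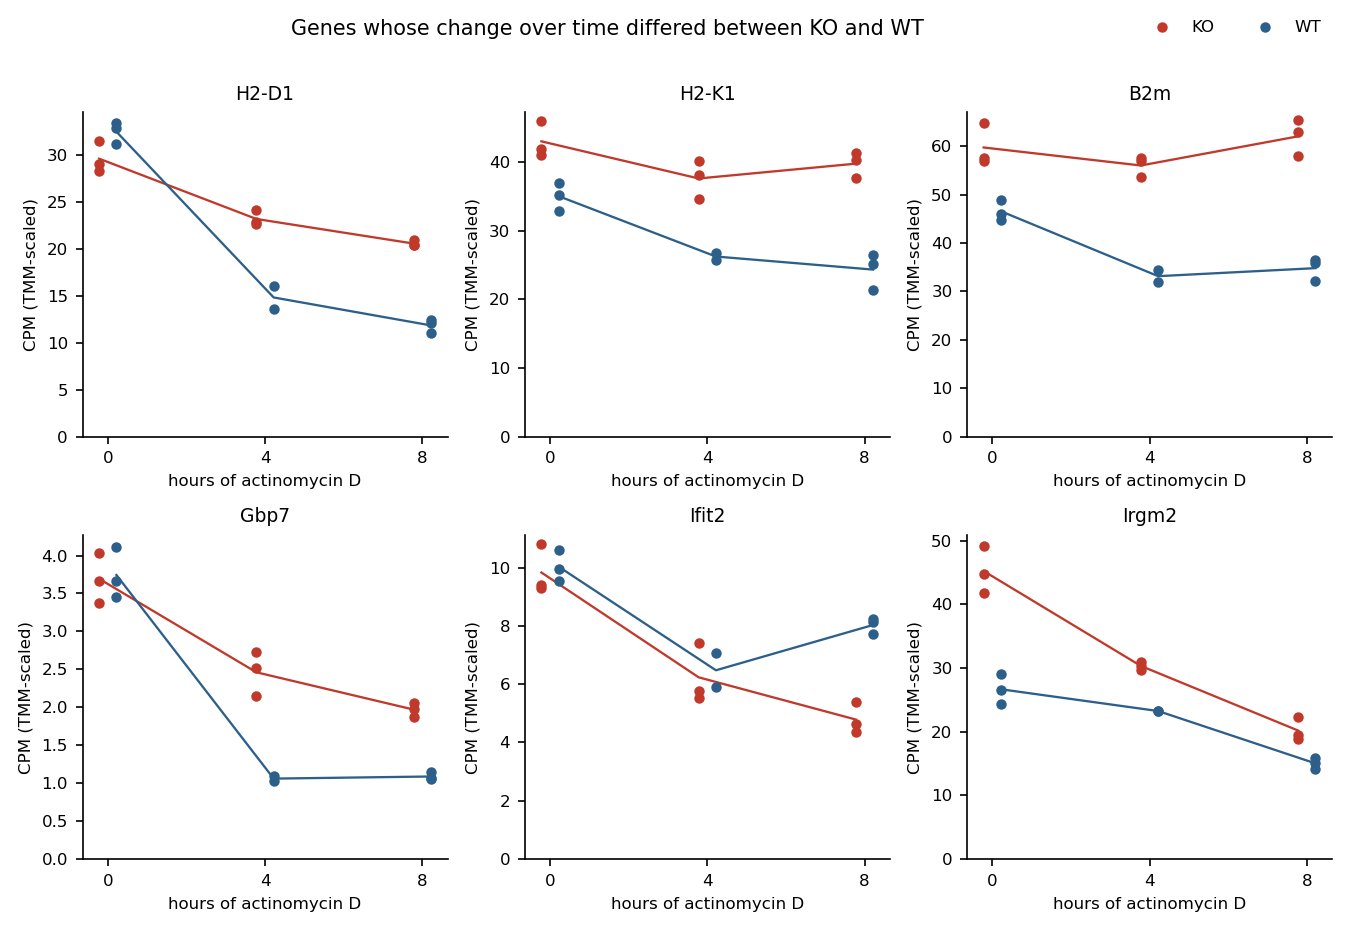
CPM per library (y axis) against hours of actinomycin D (x axis) for the 6 genes called different in their change over time at 4 or 8 h, with KO in red left of WT in blue and lines through group means. H2-D1 starts with overlapping groups and ends at 20.4 to 20.9 CPM in KO and 11.1 to 12.4 CPM in WT, and Ifit2 ends at 4.35 to 5.38 CPM in KO and 7.72 to 8.23 CPM in WT.

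**Figure D5:**
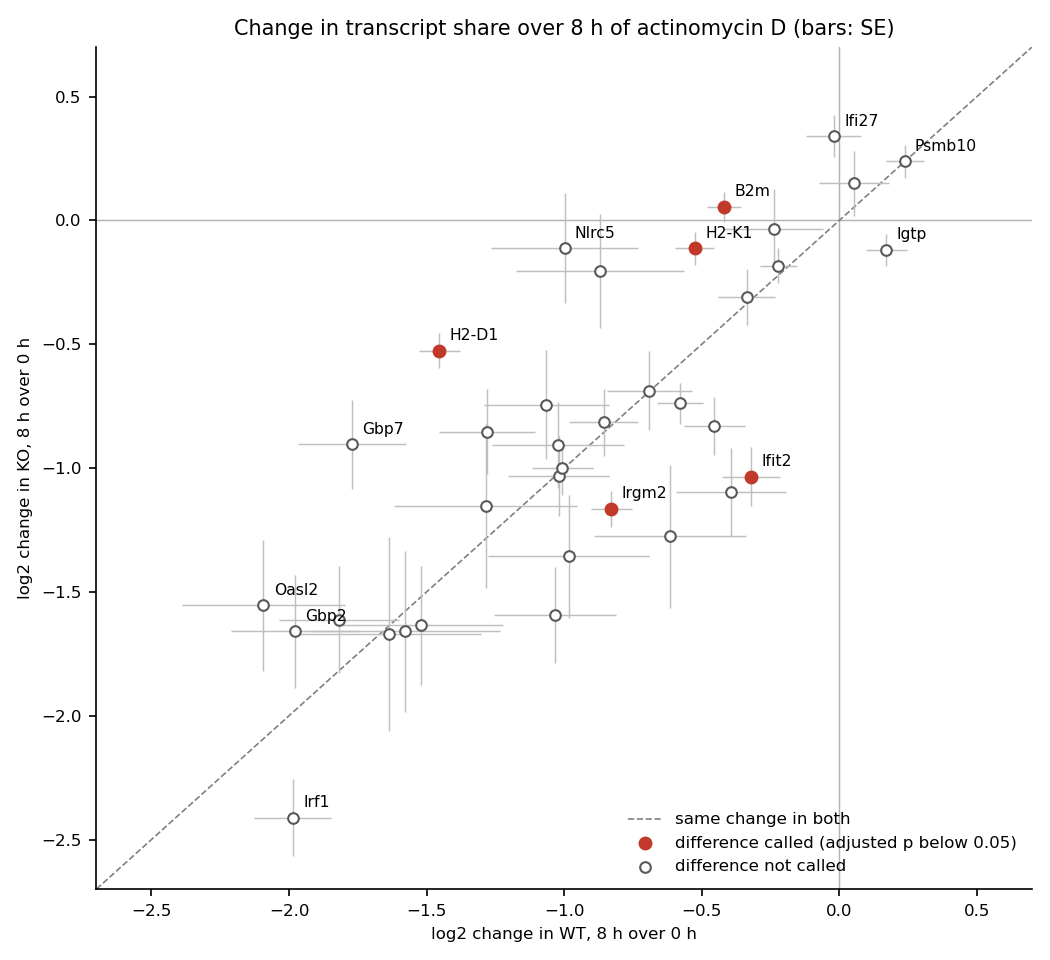
Log2 change at 8 h over 0 h in KO (y axis) against that in WT (x axis) for the 36 tested genes, with bars of 1 SE, a dashed line of equal change and red points where the difference was called. H2-D1, H2-K1 and B2m lie above the line, and Ifit2 and Irgm2 below it.

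Other genes of the pathway were read from separate lists, and values in parentheses are log2 fold changes of KO over WT called by edgeR. Of 9 interferon genes Ifnb1 alone passed the filter; it had a log2 fold change of -0.86 in KO at 0 h, which was not called (edgeR adjusted p = 0.0514). Ifna1, Ifna4, Ifne and Ifnk had no count in any library. The counts that follow stand beside 18.8% of all tested genes called higher and 17.9% lower at 0 h. At 8 h these shares were 13.9% higher and 13.7% lower. Whether any of these lists departs from the shares was not tested. Of 9 receptor and kinase genes 1 was higher and 2 were lower in KO at 0 h, namely Il10rb (0.33), Ifngr1 (-0.28) and the kinase Tyk2 (-0.53), and at 8 h Il10rb was higher (0.15). Of 13 tested STAT, IRF and feedback genes 3 were higher at 0 h, namely Irf3 (0.42), Irf2 (0.34) and the phosphatase Ptpn1 (0.34). The feedback inhibitor Socs3 (-0.81) and the phosphatase Ptpn6 (-1.11) were lower. Ptpn6 had a mean below 1 CPM over all libraries, and its SE was 0.40. At 8 h Ptpn11 (0.31), Irf3 (0.29) and Stat3 (0.16) were higher and Socs3 (-0.34) was lower. Of 13 nucleic acid sensing genes 3 were lower at 0 h, the adaptor Mavs (-0.26), Traf3 (-0.32) and Traf6 (-0.38). At 8 h the sensor Dhx58 (1.74) and the nuclease Samhd1 (0.24) were higher and Traf3 (-0.28) and the receptor Tlr3 (-0.33) lower. Dhx58 had a mean below 1 CPM over all libraries, and its SE was 0.65 (edgeR adjusted p = 0.0383).

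Of 56 further interferon-induced genes tested, 10 were higher and 10 lower in KO at 0 h, with a median of 0.04 beside -0.02 over all genes. All tested genes had 18.8% higher and 17.9% lower, so these shares are near the background. The highest were Mx1 (1.72), a GTPase that blocks influenza virus, Oasl1 (1.69) and the ISG15 conjugating enzyme Ube2l6 (1.27). The lowest were Shisa5 (-0.62), the chemokine Cxcl9 (-0.78) and the RNA-activated kinase Eif2ak2 (-1.004). Mx1 had a mean below 1 CPM over all libraries, and its SE at 0 h was 0.40. Eif2ak2 stood at 8.76 to 11.1 CPM in KO and 18.8 to 21.1 CPM in WT over all times (edgeR adjusted p = 2.16e-15 at 0 h). At 8 h 5 were higher, against 13.9% of all tested genes, and 1 lower, against 13.7%. The highest at 8 h were Ifi204 (2.21, SE 0.45), Mx1 (1.98, SE 0.72) and Ccl5 (1.22, SE 0.33), and Eif2ak2 (-1.04) was lower. During the block 39 of the 56 fell in KO and 41 in WT at 8 h, with medians of -1.26 in KO and -1.29 in WT, where 23.2% and 26.8% of all tested genes fell.

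Of 20 further class I and peptide loading genes tested, 4 were higher and 4 lower in KO at 0 h, against 18.8% and 17.9% of all genes, and 8 were higher and 5 lower at 8 h, against 13.9% and 13.7% of all genes. At 8 h the heavy chain genes H2-Q6 (0.95), H2-T22 (0.70) and H2-Q4 (0.63) were highest, and the peptide loading chaperones Calr (-0.57) and Pdia3 (-0.37) and the lipid-presenting Cd1d1 (-0.49) were lowest. At 0 h the proteasome activator subunits Psme1 (0.70) and Psme2 (0.30) and H2-T22 (0.51) were highest, and Pdia3 (-0.43), Calr (-0.45) and Cd1d1 (-0.64) lowest. All 7 tested MHC class II genes were lower in KO at 0 h, with a median of -1.29, led by H2-DMb1 (-2.48), H2-Aa (-1.52) and H2-Ab1 (-1.39). At 8 h 1 was lower, the invariant chain gene Cd74 (-0.37). H2-DMb1 had a mean below 1 CPM over all libraries, and its SE at 0 h was 0.62. Of the constitutive proteasome subunits that the immunoproteasome replaces, Psmb6 (0.38) and Psmb5 (0.13) were higher in KO at 0 h and Psmb7 was not called, and at 8 h Psmb6 was higher (0.30).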

How the data were processed

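Total RNA of 17 libraries was sequenced. The authors deposited raw counts per gene. Per the submitters' processing notes, the tools were STAR, featureCounts, limma and DESeq2, and the builds named were GRCm38 and mm10; the sources give no settings and no strand. A deposited table of ratios was not used. The row without a gene identifier, 0.00735 to 0.0155% of counts, was left out. Symbols, positions and 3′ UTRs came from GENCODE M21 (99.5% of identifiers matched), and promoters from RefSeq.

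Counts were fitted in edgeR 4.0.16 (R 4.3.3) with filterByExpr, TMM scaling and the robust quasi-likelihood test in 1 model of 6 groups, with Benjamini-Hochberg adjustment over 13229 genes and calls at an adjusted p below 0.05. The code was tested on simulated data. Standard errors are the log2 fold change divided by the square root of F. CPM values are TMM-scaled. Alternatives were other scalings, no filter, DESeq2 1.42.0, the compared groups alone, a replicate block and leaving out each library. With 17058419 to 17968827 counts per library, low genes are least precise. Within-group library pairs (16) had r of 0.994 to 0.995 and differed by 1.22 to 1.81 times Poisson noise, so none was treated as a duplicate.

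The members, gene lists and tests were chosen with earlier results of these data known. Values in every library are given for members called between genotypes at 0 h, called in the difference of changes at 8 h, or among the 3 highest or lowest changes at 8 h in either genotype; of other lists, the 3 highest and 3 lowest called genes of KO versus WT at 0 and 8 h are named. A result on a further gene of these lists is not reported here.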

Additional observations from a re-analysis of the deposited data

Results flagged for a closer look

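Changes since 0 h that differed between the genotypes by the test of that difference (edgeR, adjusted over 13229 genes) are given here as the change in KO minus that in WT, on the log2 scale. At 4 h they were 1.23 for Gbp7, 0.78 for H2-D1 and 0.40 for B2m. At 8 h they were 0.93 for H2-D1, 0.41 for H2-K1 and 0.47 for B2m, and in the other direction -0.71 for Ifit2 and -0.34 for Irgm2. The adjusted p was 0.0313 for Gbp7, 2.71e-06 for H2-D1 and 0.0273 for B2m at 4 h. At 8 h it was 1.64e-09 for H2-D1, 0.00432 for H2-K1, 1.97e-04 for B2m, 0.00305 for Ifit2 and 0.0436 for Irgm2.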

How the results depend on the processing

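The results moved with the scaling. With ribosomal protein scaling, the members called at 0 h between genotypes were 8 higher and 9 lower, 7 were lower at 4 h, none rose at 4 or 8 h in either genotype (0), and 1 gene was called higher in the difference of changes at 4 h, and 8 higher and 0 lower at 8 h. Single values turned sign under it: KO versus WT at 0 h became -0.12 for Irgm1 and -0.034 for H2-K1; the change in KO became -0.030 for Igtp at 4 h and, at 8 h, -0.33 for B2m, -0.15 for Psmb10 and -0.047 for Ifi27; the change in WT at 8 h became -0.43 for Psmb10, -0.49 for Igtp and -0.61 for Ifi35. With library size alone 4 members were lower in KO at 0 h and 4 at 8 h, 0 rose at 4 h in KO or WT, 1 rose at 8 h in KO and 0 in WT, 5 were higher and 1 lower in the difference at 8 h, and Igtp in WT at 8 h became -0.042. The median of all genes moved to -0.69 in WT and -0.41 in KO at 8 h with ribosomal protein scaling, and to -0.24 in WT with library size alone. The cause was not tested.

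Without a filter 1 member was lower in KO at 4 h, 0 rose in WT at 4 h and 1 at 8 h, and 1 was lower in the difference at 8 h. With DESeq2 1 was lower in KO at 4 h and 1 at 8 h, 1 was higher in the difference at 4 h and 1 lower at 8 h, where 21 members had no adjusted p. In the compared groups alone 0 rose in WT at 4 h and 1 at 8 h, and 1 was lower in the difference at 8 h. The counts over all genes moved between these fits too. In KO versus WT at 4 h the main fit called 1931 of 13229 genes higher and 2296 lower. DESeq2 called 1836 and 1498 of 13229, and the fit without a filter 2094 and 1669 of 29043.

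Without 1 library in turn, the members called between genotypes were 13 to 15 higher and 1 lower at 0 h, 14 to 18 higher and 0 to 2 lower at 4 h, and 12 to 13 higher and 1 to 3 lower at 8 h. In KO 0 to 1 rose and 19 to 21 fell at 4 h, and 2 rose and 24 to 27 fell at 8 h. In WT 0 to 1 rose and 15 to 22 fell at 4 h, and 1 to 2 rose and 28 to 31 fell at 8 h. The difference of changes gave 1 to 3 higher and 0 to 1 lower at 4 h, and 3 higher and 1 to 4 lower at 8 h. In fits that leave WT at 4 h with 1 library, it is assumed to vary like the others. Over all genes the counts moved as well. At 0 h 2163 to 2637 genes were called higher in KO and 1746 to 2012 lower, beside 2485 and 2363 in the main fit. From 0 to 8 h 2490 to 2613 genes rose and 2728 to 2766 fell in KO, and 3043 to 3287 rose and 3060 to 3236 fell in WT. For the other ranges the counts over all genes are not given.

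Over 40 same-numbered pairs the deviations from group means correlated between -0.0469 and 0.0382, so the numbers were not taken as pairs. A replicate block left 319 of 324 member results on the same side of the threshold and gave 15 members higher and 1 lower in KO at 0 h, 15 and 2 at 4 h and 13 and 2 at 8 h. Genes near 1 CPM, such as Psmb8, Psmb9, Xaf1 and Rtp4, have too few counts for small differences to be detectable.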
